A study of Homo sapiens with 4 samples.

Results

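The genes described here are 38 epithelial junction genes of the 60558 gene identifiers in each library, chosen by name for their place in cell contacts: 17 tight junction genes, 4 polarity genes, 6 adherens junction genes, 6 desmosome genes, and a group of 5 that holds EPCAM and the epithelial regulators. All 38 were found in the files. RNA was sequenced from A549 and HCC827, established human lung adenocarcinoma (LAD) cell lines, each transduced with an empty vector or with myr-AKT1, an AKT1 held at the membrane by an added myristoylation signal and therefore constitutively active. Both lines were cultured in DMEM with fetal bovine serum, and how the myr-AKT1 cells were selected, as clones or pools, is not given in the sources used here. Each line thus has a vector and a myr-AKT1 condition, and each of the 4 conditions has 1 library, so differences within a line have no replicate check and no p-value.

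Epithelial cells are sealed and held together by junctions stacked along their lateral membranes. In tight junctions, claudins and occludin span the gap between neighbouring cells and are tied to actin through the zonula occludens scaffolds. Adherens junctions are built from classical cadherins and catenins, whereas desmosomes use desmosomal cadherins, plakoglobin, plakophilins and desmoplakin to hold the keratin filaments. Loss of these contacts, and of E-cadherin above all, is the usual sign of epithelial-mesenchymal transition (EMT), and the question put to the junction genes here is how their mRNA levels stood in cells with active AKT1.

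More junction mRNAs passed the limit of change in A549 cells than in HCC827 cells. With a log2 fold change of 1 or -1 as the limit (myr-AKT1 over vector, from the deposited normalized counts, log2FC below), 9 of the 35 members whose normalized count averaged 10 or more in the pair were higher in A549-myr-AKT1 cells, which is 25.7% of them, where 15.1% of all 18750 genes tested in the same way were higher. Lower members numbered 2, or 5.71%, beside 9.87% of all genes. The minimum is set on the mean of a pair, for members and all genes alike. CLDN4 and CLDN7, at 8.73 and 3.49 normalized counts in A549-vector cells, passed it only through A549-myr-AKT1 cells, where they were higher. In HCC827 cells 1 of 35 members was higher, or 2.86%, beside 14.1% of 17358 genes, and 2 were lower, or 5.71%, beside 12.4%. The median log2 fold change of the members tested was 0.49 for A549 and 0.11 for HCC827, where the medians over all genes tested were -0.03 and -0.04. In A549 cells 24 of the 35 lay above 0, beside 48.2% of all genes tested, and in HCC827 cells 21 of the 35, beside 48.1%. Where a pair of values is given for a line below, myr-AKT1 comes first and vector second unless stated. In bulk RNA, fewer cells with a transcript and less of it per cell cannot be told apart.

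At the larger limit of 2 and -2, which the study used, 3 members were higher in A549 cells, beside 5.79% of all genes, and 0 were lower, beside 2.81%. In HCC827 cells 0 members were higher at that limit, beside 4.65% of all genes, and 1 was lower, beside 3.08%. All of the members past it were claudins. CLDN4 and CLDN7, which passed the minimum count only through A549-myr-AKT1 cells, were among those higher in A549 cells.

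**Figure D1:**
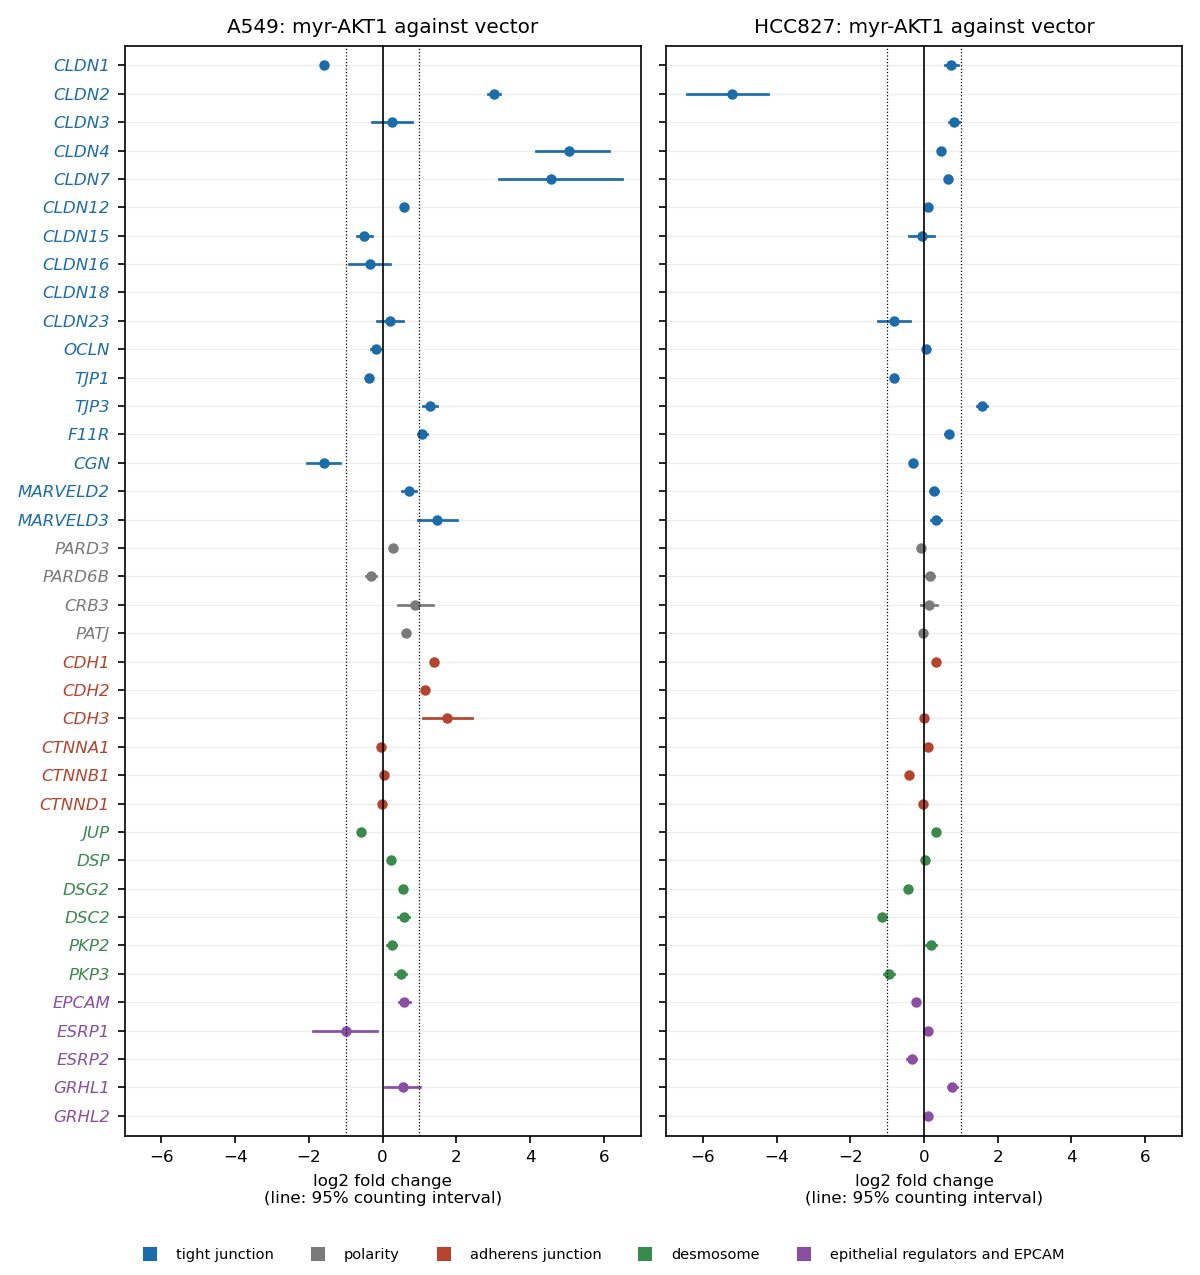
Log2 fold change of each junction gene, myr-AKT1 over vector, in A549 cells (left) and HCC827 cells (right), with points for the estimate, lines for the 95% counting interval and dotted lines at 1 and -1. The A549 points run from -1.60 to 5.06 with 9 beyond 1, whereas in HCC827 cells 32 of 35 members stay between the dotted lines and CLDN2 stands alone at -5.21; genes without a point did not reach a mean normalized count of 10 in that line.

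The claudins, which form the strands of the tight junction and set what passes between cells, gave the largest differences in both lines. Claudin-4 (CLDN4, ENSG00000189143), a claudin that tightens the paracellular barrier, lies on chromosome 7 of GRCh38 (73799542 to 73832690, plus strand). It had 292 normalized counts in A549 cells carrying myr-AKT1 against 8.73 in their vector control, from 255 and 10 reads (log2FC 5.06, 95% counting interval 4.16 to 6.14). In HCC827 cells its normalized counts were 10984 with myr-AKT1 and 7911 with vector, log2FC 0.47 (0.43 to 0.52). CLDN4 was thus nearly silent in A549-vector cells and abundant in both HCC827 libraries.

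Claudin-7 (CLDN7, ENSG00000181885, chromosome 17, 7259903 to 7263983, minus strand), another claudin of simple and airway epithelia, was likewise low in A549-vector cells. It had 83.6 normalized counts against 3.49 in A549 cells, on 73 and 4 reads, with log2FC 4.58 (3.16 to 6.49). In HCC827 cells it had 4444 and 2805, log2FC 0.66 (0.60 to 0.73). Even after the rise, CLDN4 and CLDN7 in A549-myr-AKT1 cells stayed far under their level in HCC827-vector cells. As reads per kilobase of exon per megaread (RPKM, from the recovered reads), the CLDN4 level was 2.15 in A549-myr-AKT1 cells and 77.6 in HCC827-vector cells, and the CLDN7 level was 1.16 and 51.8.

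Claudin-2 (CLDN2, ENSG00000165376, chromosome X, 106900164 to 106930861, plus strand), which forms a cation and water channel and so makes a junction leaky, went in opposite directions in the 2 lines. In A549 cells it had 2532 normalized counts under myr-AKT1 against 311 under vector, log2FC 3.03 (2.86 to 3.19). In HCC827 cells it had 10.1 against 373, from only 8 and 469 reads, with log2FC -5.21 (-6.43 to -4.22). The vector cells of the lines differed less, with CLDN2 levels of 3.11 RPKM in A549 and 5.03 RPKM in HCC827.

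Claudin-1 (CLDN1), a barrier claudin and the one with the highest level in A549-vector cells, fell in A549 cells, from 6037 normalized counts with vector to 1998 with myr-AKT1, log2FC -1.60 (-1.67 to -1.52). In HCC827 cells, where it was lower from the start, it had 411 with vector and 687 with myr-AKT1, and the log2FC of 0.74 (0.57 to 0.92) did not reach 1. CLDN16, a claudin of magnesium handling in the kidney, lies 94 bases from CLDN1 and had few reads. Its log2 fold change in A549 cells was -0.35 (-0.91 to 0.21), and in HCC827 cells it had 8 and 6 reads and was under the minimum count.

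The remaining claudins stayed within the limit in each line in which they were tested. CLDN3, which lies 29.3 kb from CLDN4, had 65.3 and 55.0 normalized counts in A549-myr-AKT1 and A549-vector cells, log2FC 0.25 (-0.30 to 0.79). In HCC827 cells it had 1291 and 731, with log2FC 0.82 (0.69 to 0.95). The log2FC values of CLDN12, CLDN15 and CLDN23 were 0.58, -0.49 and 0.20 in A549 cells and 0.11, -0.06 and -0.82 in HCC827 cells. The lung claudin CLDN18 had 0 reads in all 4 libraries, which allows at most 3 reads in each, or 2.38 to 3.77 normalized counts.

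The start regions of CLDN4 and CLDN7, the pair with the largest rise in A549 cells, and of TJP3, higher in both lines as described next, are shown so that their letters can be set beside these changes. The sequences are those of RefSeq on GRCh38.p14, each with 250 bases before and 50 after an annotated start, written 5′ to 3′ on the strand of the gene. Capitals mark CAGGTG or its reverse complement CACCTG, the E-box that the SNAI and ZEB repressors of epithelial genes bind.
CLDN4, chr7:73830746-73831045, plus strand: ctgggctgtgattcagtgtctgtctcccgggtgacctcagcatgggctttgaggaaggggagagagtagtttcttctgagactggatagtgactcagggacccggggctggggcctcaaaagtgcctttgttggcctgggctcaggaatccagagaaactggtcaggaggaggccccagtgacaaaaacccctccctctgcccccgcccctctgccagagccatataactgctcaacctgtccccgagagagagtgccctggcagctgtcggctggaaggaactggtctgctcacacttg
CLDN7, chr17:7262429-7262728, minus strand: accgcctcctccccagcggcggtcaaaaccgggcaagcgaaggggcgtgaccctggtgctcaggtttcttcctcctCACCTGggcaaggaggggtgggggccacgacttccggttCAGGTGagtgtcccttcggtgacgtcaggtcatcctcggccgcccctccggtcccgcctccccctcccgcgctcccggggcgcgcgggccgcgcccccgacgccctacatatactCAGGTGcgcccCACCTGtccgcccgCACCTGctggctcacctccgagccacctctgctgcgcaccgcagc
TJP3, chr19:3721487-3721786, plus strand: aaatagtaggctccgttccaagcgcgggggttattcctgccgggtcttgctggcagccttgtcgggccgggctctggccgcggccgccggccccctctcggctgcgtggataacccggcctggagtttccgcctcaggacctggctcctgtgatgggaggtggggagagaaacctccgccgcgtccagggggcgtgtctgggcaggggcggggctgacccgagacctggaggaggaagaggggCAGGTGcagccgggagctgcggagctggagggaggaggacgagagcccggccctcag
The CLDN4 window held no E-box of these letters. The CLDN7 window held 5, with their first bases at -174, -135, -20, -9 and 6, where 1 is the annotated start, while another annotated start of CLDN7 held 0. The TJP3 window held 1, at -7, and its other annotated start 0. RefSeq windows were matched for 24 of the 38 members, and 14 of their 39 windows, or 35.9%, held an E-box, where 7231 of all 35116 promoter windows, or 20.6%, did. CDH1, CDH3, EPCAM, ESRP1, ESRP2 and GRHL2 were among the 14 members without a window, so the share does not cover them. The motif of the grainyhead-like (GRHL) factors, AACCGGTT, which is its own reverse complement, was in 0 of the 39 member windows and in 0.134% of all windows. In the looser form AACNGGTT, searched on both strands and including the former, it was in 1 member window, that of CGN, and in 1.73% of all. A match of letters is a description of the window only.

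Among the scaffold and accessory proteins of the tight junction, zonula occludens 3 (TJP3, ENSG00000105289) was the single member higher in both lines. TJP3 links claudins to the actin cytoskeleton and lies on chromosome 19 from 3708362 to 3750813 on the plus strand. It had 752 normalized counts against 307 in A549 cells, log2FC 1.29 (1.10 to 1.48), and 1645 against 550 in HCC827 cells, log2FC 1.58 (1.45 to 1.72). Its paralog zonula occludens 1 (TJP1), the main scaffold of the junction, had values under 0 in both lines that did not reach -1. TJP1 had 7322 and 9413 normalized counts in A549-myr-AKT1 and A549-vector cells (log2FC -0.36, -0.41 to -0.32) and 2718 and 4816 in HCC827 cells (-0.83, -0.90 to -0.75).

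Junctional adhesion molecule A (F11R), an immunoglobulin-like receptor that helps to place the polarity complex, had 1428 and 675 normalized counts in A549 cells with myr-AKT1 and vector, log2FC 1.08 (0.95 to 1.21). Its HCC827 values were 2306 and 1450, log2FC 0.67 (0.57 to 0.76). MARVELD3, a membrane protein of the occludin family, had 117 and 41.9 normalized counts in A549 cells, log2FC 1.48 (0.97 to 2.005), and 868 and 694 in HCC827 cells, with 0.32 (0.18 to 0.47). For F11R and MARVELD3 the counting interval in A549 cells reaches under 1.

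Cingulin (CGN), a cytoplasmic plaque protein that binds zonula occludens proteins and myosin, fell in A549 cells. It had 64.1 normalized counts against 193, log2FC -1.59 (-2.04 to -1.16), and in HCC827 cells 2345 and 2903, with -0.31 (-0.39 to -0.23). Occludin (OCLN), the first transmembrane protein known from tight junctions, had 994 and 1130 normalized counts in A549 cells and 2387 and 2285 in HCC827 cells, with log2FC values of -0.19 (-0.31 to -0.06) and 0.06 (-0.02 to 0.15). Tricellulin (MARVELD2), which seals the corners where 3 cells meet, had log2FC values of 0.71 and 0.27. Over the whole group, 6 of 16 tight junction genes tested were higher (37.5%) and 2 lower (12.5%) in A549 cells. In HCC827 cells 1 of 15 was higher and 1 lower, each 6.67%. Of all genes tested, 15.1% were higher and 9.87% lower in A549 cells, and 14.1% and 12.4% in HCC827 cells.

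The polarity genes encode the PAR and Crumbs complexes that set the apical side of the cell, and 0 of 4 passed the limit in either line. Their log2 fold changes in A549 cells were 0.28 for PARD3, -0.31 for PARD6B, 0.88 for CRB3 and 0.64 for PATJ. In HCC827 cells the same genes lay between -0.09 and 0.15. Over all genes tested, 15.1% were higher and 9.87% lower in A549 cells, and 14.1% and 12.4% in HCC827 cells.

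In the adherens junction, the cadherins and the catenins parted in A549 cells. E-cadherin (CDH1, ENSG00000039068, chromosome 16, 68737292 to 68835537, plus strand), the principal epithelial cadherin, had 10523 normalized counts against 4021 in A549 cells, and its log2FC was 1.39 (1.34 to 1.44). P-cadherin (CDH3, ENSG00000062038, chromosome 16, 68636189 to 68727468, plus strand), a cadherin of basal and placental epithelium whose gene ends 9.8 kb before CDH1, rose with it in A549 cells, with 82.4 normalized counts against 24.5 and log2FC 1.75 (1.11 to 2.44). N-cadherin (CDH2), the cadherin of neural and mesenchymal cells that replaces CDH1 in a cadherin switch, was higher as well, with 5627 against 2526 and log2FC 1.16 (1.09 to 1.22). Thus all 3 classical cadherins on the list were higher in A549-myr-AKT1 cells.

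In HCC827 cells the cadherins stayed within the limit. CDH1 had 22623 normalized counts against 18208, log2FC 0.31 (0.28 to 0.34). CDH3 had 15092 and 15004, log2FC 0.01 (-0.02 to 0.04). CDH2 had 2 and 4 reads in HCC827-myr-AKT1 and HCC827-vector cells and was not tested, and the log2 ratio of -0.34 has a counting interval from -3.80 to 2.47.

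The catenins, which couple cadherins to actin, lay close to 0. The A549 log2 fold changes were -0.04 (-0.08 to -2.88e-04) for α-catenin (CTNNA1), 0.04 (-0.00 to 0.08) for β-catenin (CTNNB1) and -0.00 (-0.05 to 0.04) for p120-catenin (CTNND1). CTNNB1, which also carries the Wnt signal, had 9081 and 8836 normalized counts in A549 cells and 7452 and 9874 in HCC827 cells, where the log2 fold change was -0.41 (-0.45 to -0.36). In HCC827 cells CTNNA1 had 0.11 and CTNND1 -0.02. As a group, 3 of 6 adherens junction genes were higher in A549 cells, beside 15.1% of all genes tested. In HCC827 cells 0 of 5 tested were higher, beside 14.1%.

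Of the 6 desmosome genes, 0 passed the limit in A549 cells and 1 was lower in HCC827 cells. Among all genes tested, 15.1% were higher and 9.87% lower in A549 cells, and 14.1% and 12.4% in HCC827 cells. Desmocollin-2 (DSC2), a desmosomal cadherin, had 1494 normalized counts in HCC827-myr-AKT1 cells and 3272 in HCC827-vector cells, log2FC -1.13 (-1.23 to -1.04). In A549 cells it had 900 and 603, log2FC 0.58 (0.43 to 0.73). Plakophilin-3 (PKP3), a plaque protein, came near the limit in HCC827 cells with log2FC -0.94 (-1.08 to -0.81), against 0.49 (0.34 to 0.63) in A549 cells.

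Desmoglein-2 (DSG2), the desmosomal cadherin that pairs with DSC2 in simple epithelia, had log2FC values of 0.57 for A549 and -0.44 for HCC827. Plakoglobin (JUP), shared by desmosomes and adherens junctions, had -0.58 and 0.33. Desmoplakin (DSP), the link to keratin filaments, had 0.24 and 0.04, and PKP2 had 0.25 and 0.20. The medians of the group were 0.37 for A549 and -0.20 for HCC827.

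The epithelial regulators are upstream of the junction proteins: ESRP1 and ESRP2 set the epithelial pattern of splicing, and GRHL1 and GRHL2 are transcription factors that switch on junction genes. EPCAM, an adhesion molecule of epithelial cells that binds claudin-7, was counted with them. EPCAM had 816 and 542 normalized counts in A549-myr-AKT1 and A549-vector cells, log2FC 0.59 (0.43 to 0.75), and 8640 and 10056 in HCC827 cells, with -0.22 (-0.26 to -0.18). Neither value passed the limit.

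ESRP2 and GRHL2 were at or near the floor in A549 cells, ESRP1 was low there but above it, and each was abundant in HCC827 cells. ESRP1 had 17 and 44 reads in A549-myr-AKT1 and A549-vector cells, log2FC -0.98 (-1.88 to -0.14), and 6436 and 9437 reads in HCC827 cells, with 0.11 (0.06 to 0.16). ESRP2 had 0 and 3 reads in A549 cells, and GRHL2 had 6 and 1, and both were under the minimum count there. In HCC827 cells the log2 fold change was -0.34 (-0.46 to -0.22) for ESRP2 and 0.11 (0.02 to 0.19) for GRHL2. GRHL1 had log2FC values of 0.54 for A549 and 0.77 for HCC827. With EPCAM, 0 of 3 genes tested in A549 and 0 of 5 tested in HCC827 passed the limit. The shares of all genes were 15.1% higher and 9.87% lower in A549 cells, and 14.1% and 12.4% in HCC827 cells.

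**Figure D2:**
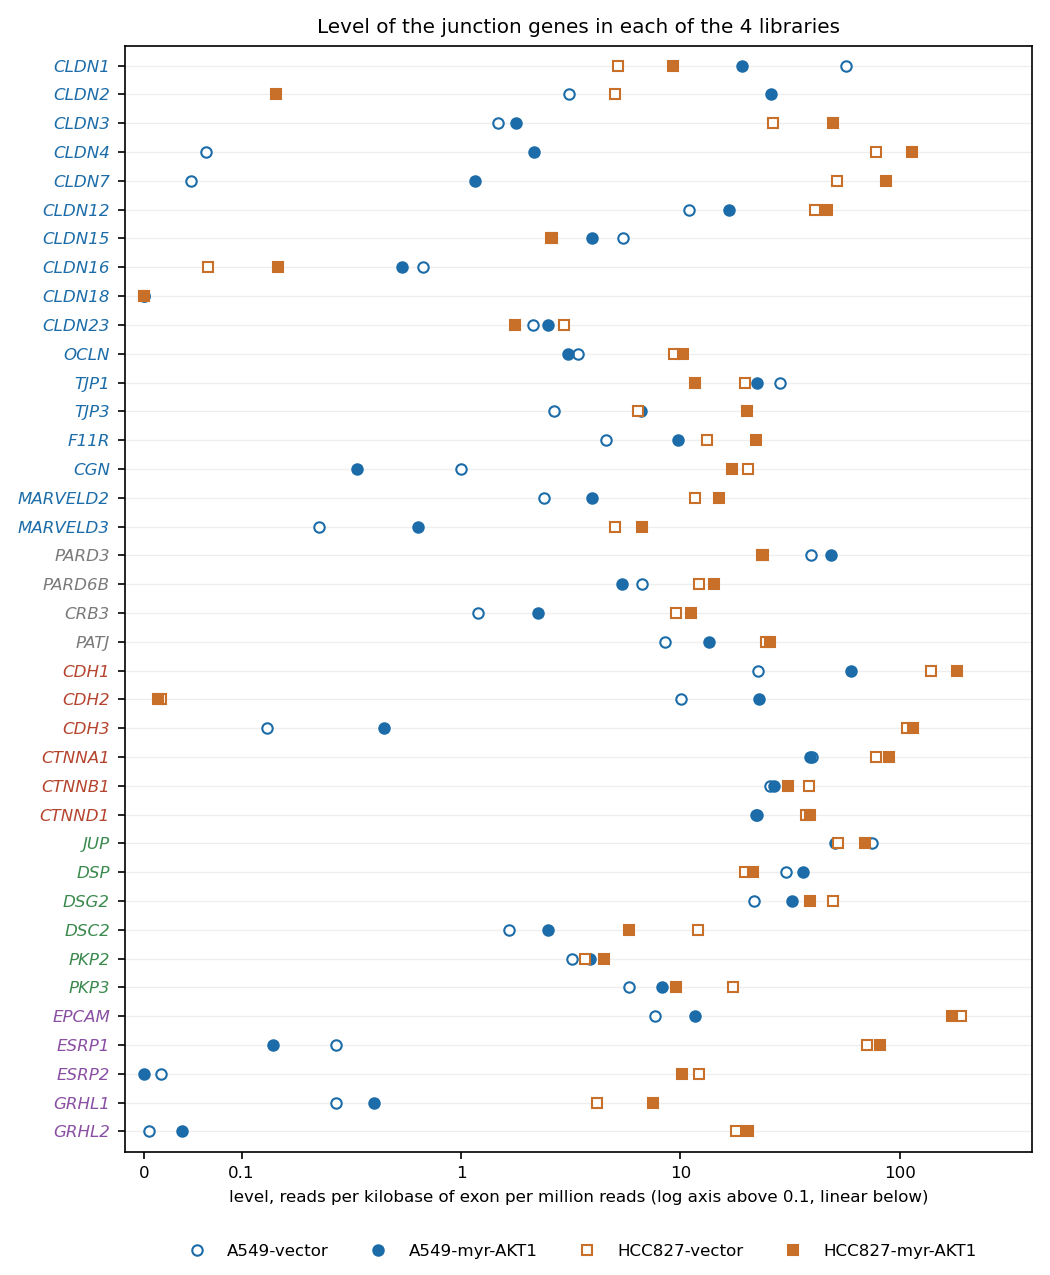
Level of each junction gene in the 4 libraries, in RPKM on a log axis above 0.1 (linear below), with circles for A549, squares for HCC827, open symbols for vector and filled symbols for myr-AKT1. CLDN4 and CLDN7 lie under 0.1 in A549-vector cells, at 2.15 and 1.16 in A549-myr-AKT1 cells and above 50 in both HCC827 libraries, while PKP2, DSP and JUP lie close together in all 4.

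The vector cells already differed in junction mRNAs between the lines, and they were compared with size factors over all 4 libraries, because the deposited values were scaled within each line. Of 37 members tested, 22 had a log2 ratio of HCC827-vector to A549-vector above 1, or 59.5%, beside 19.7% of 18310 genes, and 4 had a ratio under -1, or 10.8%, beside 20.7%. At 2 and -2 the members numbered 15 and 3, beside 10.4% and 10.9% of all genes. The median log2 ratio was 1.502 for the members and -0.01 for all genes. The 4 members with less mRNA in HCC827-vector cells were CLDN1, CLDN15, CLDN16 and CDH2. CLDN4, CLDN7, ESRP2 and GRHL2, with 10, 4, 3 and 1 reads in A549-vector cells, passed the minimum mean only through HCC827-vector cells. CLDN16 and CDH2, with 6 and 4 reads in HCC827-vector cells, passed it only through A549-vector cells.

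For the claudins and cadherins with the widest ratios, the log2 ratio was 10.24 (9.36 to 11.30) for CLDN4, 10.06 (8.71 to 11.94) for CLDN7 and 9.68 (9.14 to 10.27) for CDH3, and in the opposite direction -9.22 (-11.10 to -7.86) for CDH2. For ESRP1 it was 8.02 (7.60 to 8.48), for EPCAM 4.63 (4.51 to 4.75) and for GRHL1 3.93 (3.58 to 4.30). ESRP2 and GRHL2, with 3 reads and 1 read in A549-vector cells, had log2 ratios of 9.44 (7.89 to 11.72) and 11.81 (9.33 to 17.11). The A549 fold changes above and these ratios share the A549-vector library.

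**Figure D3:**
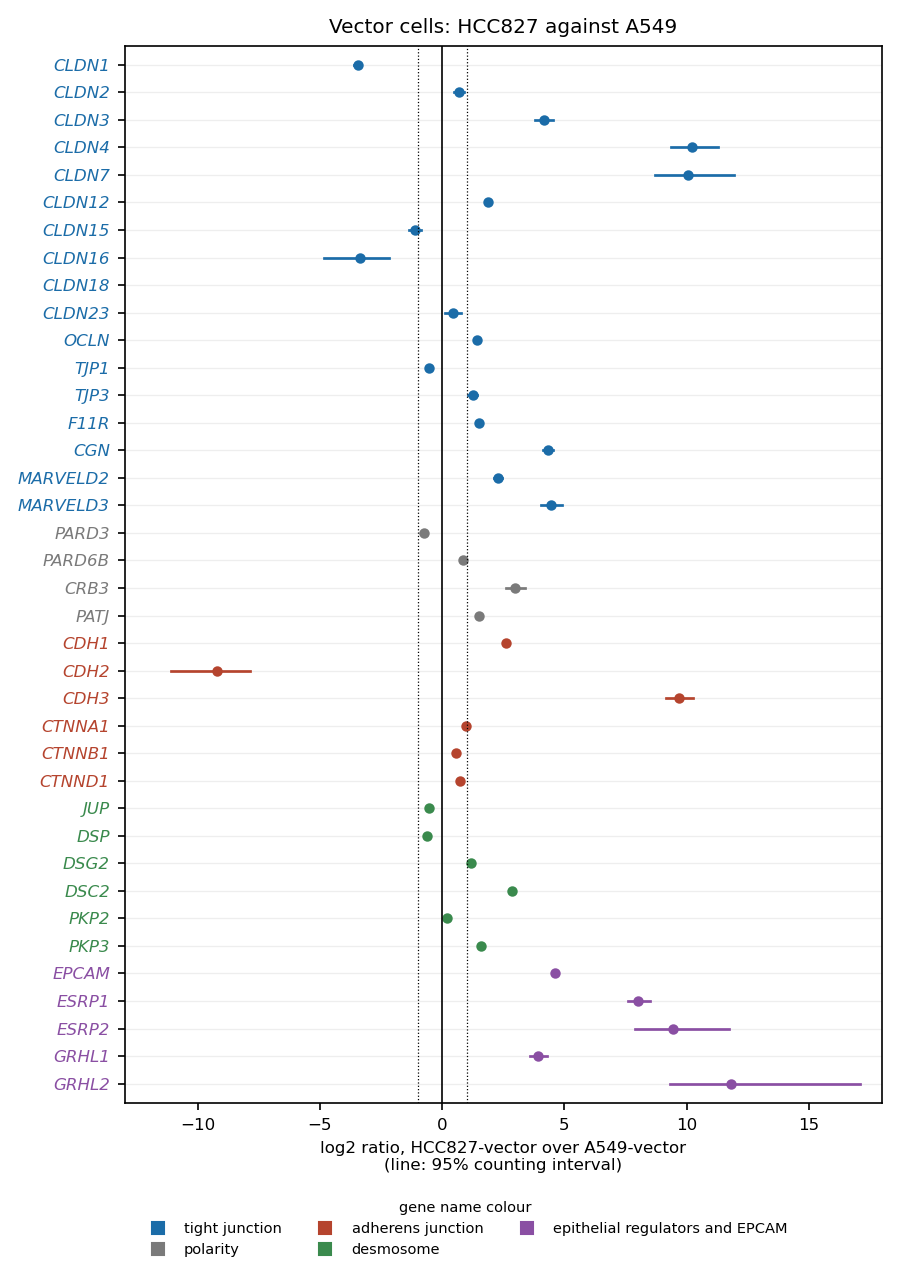
Log2 ratio of each junction gene in HCC827-vector over A549-vector cells, with lines for the 95% counting interval and dotted lines at 1 and -1. EPCAM and the regulators, 5 genes in all, lie right of 1, CDH2 lies at -9.22, and the desmosome genes run from -0.63 to 2.86.

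The levels within a library had different leaders in the 2 lines. In A549-vector cells the highest levels were 74.8 RPKM for JUP and 56.8 RPKM for CLDN1, and in A549-myr-AKT1 cells 60.0 RPKM for CDH1 and 50.7 RPKM for JUP. EPCAM (191 RPKM) and CDH1 (138 RPKM) led in HCC827-vector cells, and CDH1 (181 RPKM) and EPCAM (173 RPKM) in HCC827-myr-AKT1 cells. Summed over its members, the adherens junction group had 120 RPKM with vector and 171 with myr-AKT1 in A549 cells, and 400 and 455 in HCC827 cells. The sums of the tight junction group were 123, 120, 298 and 414 RPKM in the same order, so that the A549 sum barely moved while its parts did. For the regulators with EPCAM they were 8.18, 12.2, 296 and 292 RPKM, and for the desmosome group 137, 134, 155 and 149 RPKM.

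The directions in the 2 lines were set side by side for each gene. Of 33 members tested in both lines, 10 had counting intervals above 0 in both (CLDN4, CLDN7, CLDN12, TJP3, F11R, MARVELD2, MARVELD3, CDH1, PKP2 and GRHL1) and 2 had intervals under 0 in both (TJP1 and CGN). Another 11 had intervals on opposite sides of 0, among them CLDN1, CLDN2 and 4 desmosome genes (JUP, DSG2, DSC2 and PKP3), and 10 had an interval that includes 0. Of the 15704 genes tested in both lines, 18% had intervals above 0 in both, 24.1% under 0 in both and 14.7% on opposite sides, where the members had 30.3%, 6.06% and 33.3%. An interval narrows as reads rise, and the read depth of the members against all genes was not matched here. These intervals cover counting error only, and whether the lines differ beyond the spread between cultures was not tested.

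**Figure D4:**
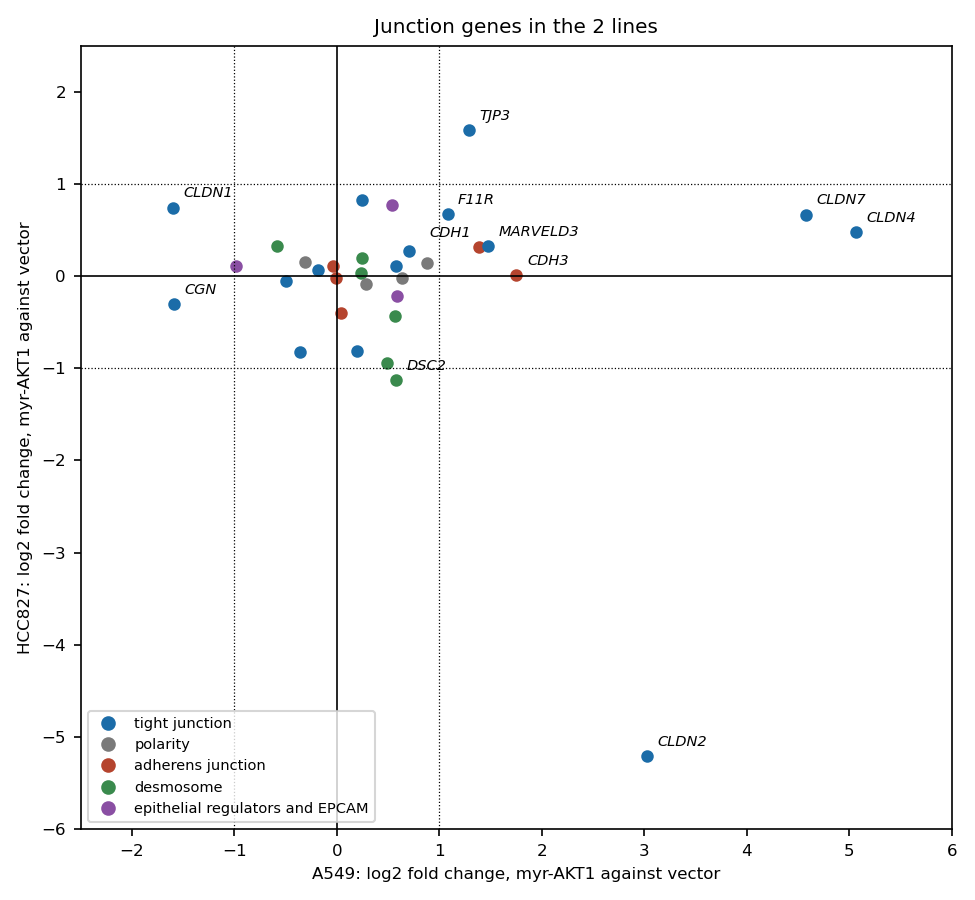
Log2 fold change of the 33 junction genes tested in both lines, A549 on the horizontal and HCC827 on the vertical axis, with dotted lines at 1 and -1 and names for genes past the limit in a line. TJP3 is alone in the upper right field beyond 1 in both lines, CLDN4 and CLDN7 lie far right with small HCC827 values, and CLDN2 lies at 3.03 and -5.21.

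The lines can stand as replicates of each other in a single fit, made by limma on log2(normalized count + 1), blocked on cell line, over 19314 genes and with 1 residual degree of freedom. In it, 1 of 37 members was higher at a Benjamini-Hochberg adjusted p under 0.05, or 2.70%, beside 1.29% of all genes, and 0 were lower, beside 1.73%. The member called was TJP3, with log2FC 1.43 (standard error 0.293, adjusted p = 0.0463 from limma), higher in 2 of 2 lines. It rests on the choice of the fit, since the quasi-likelihood test of edgeR gave an adjusted p of 0.0532, and over all 6 other settings it ran from 5.74e-04 (DESeq2) to 0.999999 (limma without the block). CLDN4 (2.69, standard error 0.846, adjusted p = 0.145 from limma) and CLDN7 (2.45, standard error 0.741, adjusted p = 0.135 from limma) did not pass, and neither did CDH1 (0.85, standard error 0.313, adjusted p = 0.202 from limma). At an unadjusted p under 0.05, limma had 7 members, 5 higher and 2 lower (TJP1 and CGN). The share of all genes under that p was not counted, so these members have no background beside them. All 6 other settings of the fit called 0 members lower as well, but 2 of them, limma without the block and limma with a pseudocount of 0.1, called 0 of all genes.

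Other genes of the same structures were followed on lists of their own, with the same limit of 1 and -1. For the lists that follow, the shares of all genes tested were 15.1% higher and 9.87% lower in A549 cells. In HCC827 cells they were 14.1% and 12.4%. In a list of 20 further tight junction genes, 0 of 7 tested were higher and 1 lower (JAM3) in A549 cells, and 1 of 8 was higher (CLDN22, with 25 reads against 0) and 1 lower (CLDN9, with 9 against 43) in HCC827 cells. Of 12 further polarity genes, 11 of them tested in A549 cells and 9 in HCC827 cells, PARD6A, a partner of atypical protein kinase C, was the single one past the limit and was lower in both lines, with log2FC values of -1.84 (-2.99 to -0.84) and -1.10 (-1.72 to -0.51). Of 10 further desmosome and plakin genes, DSG4 (20 reads against 3) was higher in A549 cells and periplakin (PPL) lower in HCC827 cells, with -1.07 (-1.20 to -0.94).

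The further adherens junction genes, a list of 13, had 3 of 10 tested higher and 1 lower in A549 cells, beside 15.1% and 9.87% of all genes. In HCC827 cells 2 of 8 were higher and 2 lower, beside 14.1% and 12.4%. NECTIN4, an immunoglobulin-like adhesion molecule, had log2FC values of 3.17 (2.02 to 4.56) and 1.83 (1.60 to 2.06). The intestinal cadherin CDH17 had 2.999 (2.89 to 3.11) and 1.03 (0.50 to 1.57). The fit over both lines called neither NECTIN4 (adjusted p = 0.069 from limma) nor CDH17 (adjusted p = 0.0814 from limma). NECTIN3 passed the limit in opposite directions, at 1.06 (0.99 to 1.13) in A549 cells and -1.06 (-1.26 to -0.87) in HCC827 cells. The cadherins CDH11 and CDH4 were not higher in A549 cells, at -0.66 (-0.86 to -0.47) and -0.39 (-0.97 to 0.18), and were not tested in HCC827 cells. CTNNAL1, a relative of α-catenin, was called lower in the fit over both lines, at -1.72 (standard error 0.254, adjusted p = 0.0202 from limma). Over the 6 other settings its adjusted p ran from 1.87e-06 to 0.999999, and 3 of them called it.

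Among 11 further epithelial regulators, 4 of 8 tested were higher and 1 lower (GRHL3) in A549 cells, and 4 of 11 were higher and 0 lower in HCC827 cells. GRHL3 went in opposite directions. It had 25 reads against 391 in A549 cells, log2FC -3.58 (-4.22 to -2.99), and 23 against 9 in HCC827 cells, log2FC 2.02 (0.85 to 3.31). SPINT1, an inhibitor of the membrane proteases matriptase and prostasin, had 172 and 21.0 normalized counts in A549 cells and 9733 and 2257 in HCC827 cells, with log2FC values of 3.03 (2.41 to 3.72) and 2.11 (2.05 to 2.17). EHF, an ETS factor of epithelia, had 2.12 (1.9998 to 2.24) and 1.06 (1.01 to 1.11). Both were called higher in the fit, SPINT1 with an adjusted p of 0.0143 and EHF with 0.0391 from limma. In the 6 other settings the adjusted p ran from 4.35e-10 to 0.999999 for SPINT1, which 3 of them called, and from 1.84e-06 to 0.999999 for EHF, which 2 called. Limma without the block and limma with a pseudocount of 0.1 called none of SPINT1, EHF and CTNNAL1. Of 6 repressors of CDH1 tested in A549 cells, 2 were higher, SNAI2 (43 reads against 6, log2FC 3.23) and ZEB2 (124 against 37, 2.14). SNAI1 had 0.74 there, while ZEB1, TWIST1 and TWIST2 had -0.22, -0.91 and -0.71. Of 5 tested in HCC827 cells, 2 were higher, SNAI1 (170 reads against 97, 1.47) and ZEB2 (24 against 15, 1.34). ZEB1 was lower (26 against 101, -1.29). SNAI2 and TWIST2 had -0.71 and -0.17 there, and TWIST1 had 0 reads. Over all genes, 15.1% were higher and 9.87% lower in A549 cells, and in HCC827 cells 14.1% were higher and 12.4% lower.

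The A549 libraries held 33530317 reads for vector and 25190760 for myr-AKT1, and the HCC827 libraries 27312465 and 16322183. All 5 epithelial markers had reads in every library, and their normalized counts summed to 142807 against 172037 in A549 cells and to 76398 against 148253 in HCC827 cells, lower with myr-AKT1 in both. In A549 cells KRT8 and KRT18 made up most of the sums and were lower, while KRT19, CDH1 (log2FC 1.39) and EPCAM (0.59) were higher. In HCC827 cells CDH1 (0.31) was the single marker of the 5 above 0. Among the keratins of simple epithelia, KRT8 had log2FC values of -0.36 and -1.81, KRT18 of -0.38 and -1.75 and KRT19 of 2.65 and -0.75 for A549 and HCC827. The 4 lung adenocarcinoma markers summed to 43.5, 41.9, 2895 and 5209 in the same order, of which SFTPC had 0 reads in all 4 and NKX2-1 had 8 and 0 reads in the A549 libraries against 702 and 1993 in the HCC827 libraries. AKT1 had log2FC 0.57 for A549 and 1.14 for HCC827, with reads of construct and endogenous gene together. The 6 fibroblast markers summed to 1176 normalized counts in A549-myr-AKT1 and 148 in A549-vector cells, and to 185 and 52.5 in HCC827 cells, and COL1A2 was at 0 in all 4 libraries. The 6 leukocyte markers summed to 918, 83.8, 96.9 and 22.3 in the same order, with CD3E at 0 in all 4, and the 4 endothelial markers to 137, 14.0, 203 and 81.9. The fibroblast, leukocyte and endothelial sums were higher with myr-AKT1 in both lines, but few genes made up most of each sum in myr-AKT1 cells. The endothelial counts of A549-myr-AKT1 cells were those of PECAM1 (69.9) and CDH5 (67.6), with VWF and KDR at 0 reads. In HCC827 cells PECAM1 had 106 against 62.0 and KDR 64.2 against 5.56. In A549 cells CD14 had 784 normalized counts against 34.9, while PTPRC had 7 reads against 1. COL1A1 had 765 against 76.8 and LUM 348 against 22.7 there, while PDGFRA had log2FC 0.02. In HCC827-myr-AKT1 cells CD14 had 85.6 and COL1A1 179. The part of any of these marker sums in the junction results was not tested. In GENCODE, 4 members share over 10% of their exon bases with another gene on the same strand (CTNND1 with 39.1%, F11R with 36.6%, CLDN12 with 17.6% and CLDN7 with 10.8%), and MARVELD3 shares 18.4% on the other strand, so their counts are uncertain to that extent.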

How the data were processed

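RNA sequencing of 4 libraries, 1 per condition, was used. Per the labels the kit was strand-specific with removal of ribosomal RNA, whereas the paper's Methods describe poly(A) selection. The authors mapped the reads to hg38 with Bowtie2 and counted them per Ensembl gene with HTSeq, and the strand setting of the counting is not given in the sources used here. In the deposited signal each read count has been divided by its library's size factor (0.795 to 1.26), estimated within each line, although the Methods name RPKM. Whole reads were recovered, within 0.001 of a whole number, for 100% of detected genes in both myr-AKT1 libraries and for all but 1 gene in each vector library.

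Identifiers were matched to GENCODE release 44 (60261 of 60558). Log2 fold changes of myr-AKT1 over vector are given as ratios of deposited values, no pseudocount being added. Ratios between the vector cells are of recovered reads over size factors of all 4 libraries. For the calls, counts and medians, reads under the floor of 3 were set to 3. In the vector comparison GRHL2 thus counted as 10.22, where its plain log2 ratio is 11.81. The 95% Clopper-Pearson intervals and the floor refer to recovered reads. Intervals and floors cover counting error only. A gene was tested in a pair at a mean normalized count of at least 10. Since the values are normalized, both lines were fitted together with limma on log2(value + 1), with a trend and filterByExpr, and edgeR and DESeq2 were run on the recovered reads. The scripts were tested on simulated data. The members, lists, named genes and limits (all 38 members, those past the limit or called in the fit in full, and up to 3 examples of each of 6 other lists) were chosen with earlier results of these data known, and genes outside this rule that are named beside a count were chosen after their values were seen. Python 3.11.15 with pandas 2.3.3, scipy 1.17.1 and numpy 2.4.6 was used for the fold changes, and R 4.3.3 with DESeq2 1.42.0, edgeR 4.0.16 and limma 3.58.1 for the fits.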

Additional observations from a re-analysis of the deposited data

Results flagged for a closer look

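In 11 junction genes the log2 fold change had opposite signs in the 2 lines, with both counting intervals apart from 0, which is 33.3% of the 33 tested in both lines, beside 14.7% of all 15704 genes tested in both. The difference itself was not tested, because each condition has 1 library. As the HCC827 value minus the A549 value, it was -8.24 for CLDN2, -1.71 for DSC2, -1.43 for PKP3, -1.005 for DSG2, -0.81 for EPCAM and -0.37 for PARD3. It was 2.34 for CLDN1, 1.09 for ESRP1, 0.91 for JUP, 0.47 for PARD6B and 0.15 for CTNNA1. With TMM, with total reads and with size factors over all 4 libraries, 10 of the 11 kept opposite signs. CTNNA1 kept them with TMM and total reads and lost them with size factors over all 4 libraries, where its values were 0.06 and 0.16. PARD3 was among the 10, but its HCC827 value lay near 0, at -0.0077 with total reads and -0.039 with size factors over all 4 libraries.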

How the results depend on the processing

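The counts of members past the limit depended on it. At 2 and -2 instead of 1 and -1, the A549 counts went from 9 higher and 2 lower to 3 and 0, and the HCC827 counts from 1 and 2 to 0 and 1. Without the minimum count, 2 members were higher in HCC827 cells, with CLDN16 (8 and 6 reads) added, and 10 in A549 cells, with GRHL2 (6 reads and 1 read) added. At a mean of at least 50, 8 were higher in A549 cells, CLDN7 being left out. Size factors over all 4 libraries moved the median of all genes in A549 cells from -0.03 to 0.07, and across the scalings the members' median ran from 0.49 to 0.59 in A549 cells and from 0.09 to 0.19 in HCC827 cells. In the fit over both lines, limma called 1 member higher among 585 genes called. The quasi-likelihood test of edgeR called 0 with TMM and 0 with median-of-ratios factors, the Wald test of DESeq2 called 2 (TJP3 and CLDN4), limma without the block 0, limma with a pseudocount of 0.1 called 0, and limma over genes with any read 4 (CDH1, TJP3, CLDN7 and CLDN4). The cause was not tested. At an unadjusted p under 0.05 these settings had 7, 5, 5, 0, 5 and 11 members, and all genes were not counted at that p. At an adjusted p under 0.05 they called 424, 99, 1139, 0, 0 and 1995 of all genes. No log2 fold change past the limit changed sign in any setting. Leaving out a library was not run, since it leaves a condition without data, and leaving out a line leaves no residual degrees of freedom. Depth limits CLDN4, CLDN7, CDH3, ESRP1, ESRP2 and GRHL2 in A549 cells and CLDN2, CLDN16 and CDH2 in HCC827 cells most.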
